A study of Mus musculus with 16 samples.

Results

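The genes described here are 45 DNA replication genes: factors that license origins of replication, the helicase and its activators, primase and the replicative polymerases, the sliding clamp with its loader and the enzymes that process DNA strands, the enzymes of deoxynucleotide supply, and factors that copy chromatin marks. They were chosen by symbol from these functions, with earlier results of these data known. All 45 were found among the 55359 gene rows of the read count table. Duodenum and ileum were taken from adult male C57BL/6N mice on a high fat diet, 5 weeks after tamoxifen was given. Mutant mice were Neurog3f/f;Villin-CreERT2, with floxed Neurog3 alleles and a tamoxifen-dependent recombinase under the Villin promoter, which is active throughout the intestinal epithelium. Control mice were Neurog3f/f without the recombinase, so the floxed alleles, the diet and the strain were shared by both groups, and recombinase activity itself was present in the mutant group alone. The enteroendocrine lineage, the hormone cells of the gut lining, depends on the transcription factor Neurog3. Each of the 8 mice gave 1 library per tissue, and the controls were C133, C134, C151 and C154, the mutants M136, M167, M168 and M177. The letters C and M, for control and mutant, were put before the number that the labels give a mouse, and values are listed in this order of mice.

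Before a cell divides it copies its DNA once. In G1 the origin recognition complex, Cdc6 and Cdt1 load the Mcm2 to Mcm7 helicase onto origins, and in S phase Cdc45, the GINS complex and Mcm10 activate it, after which polymerase alpha with primase lays primers, polymerases delta and epsilon extend them, and the PCNA clamp, flap nuclease and ligase finish the strands. Transcripts of most of these genes rise at the G1/S boundary under E2F factors, and in the intestine they belong mainly to the dividing cells of the crypts, with further dividing cells in lymphoid follicles.

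The 16 libraries held 40.9 to 67.2 M counts. Levels are given as counts per M of the library size after scaling by the trimmed mean of M values (CPM). A CPM value is therefore not a plain share of a library's counts. As a check of the labels, Neurog3 stood at 2.56, 2.78, 2.58 and 2.43 CPM in control duodenum and at 1.02, 1.03, 0.949 and 0.560 CPM in control ileum. In the mutant libraries it had no count in 6, at 0.0236 CPM in the duodenum of mouse M167 and at 0.0164 CPM in the ileum of mouse M136. The defining epithelial markers were present in every group, with 7 epithelium genes (Epcam and keratins among them) summing to 4535 to 5139 CPM in control duodenum and 6141 to 7349 CPM in control ileum. Some libraries stood apart in the other tissue they held. Ileal libraries C134 and C154 carried 202.6 and 231 CPM of 13 lymphoid follicle genes against 18.8 and 21.0 CPM in the other two, and the duodenum of mutant mice M167 and M177 carried 203087 and 196173 CPM of 12 exocrine pancreas genes against 9124 and 44916 CPM in the other two. Control duodenum was split along the same mice as control ileum: C134 and C154 had 73.3 and 119.9 CPM of the follicle genes and 72.9 and 77.0 CPM of the pancreas genes, while C133 and C151 had 19.3 and 21.8 CPM of the former and 33069 and 20763 CPM of the latter. Because the labels name 4 mice per genotype, p-values of the genotype comparisons within a tissue measure the spread between mice. The main tests between tissues treated the duodenum and ileum of a mouse as independent, so their p-values do not use the pairing.

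In the ileum, all 45 replication genes were higher in mutant than in control mice, against a background in which 19.0% of the 18310 genes tested rose and 14.6% fell. Their log2 fold changes ranged from 0.36 for Pold3 to 1.70 for Rrm2, with a median of 0.88 (a fold of 1.84), while the median over all genes tested was -0.03. For 43 of the 45 every mutant library lay above every control library, which held for 16.9% of all genes tested. The exceptions were Rfc2, a clamp loader subunit, and Rpa3, a subunit of the single strand binding protein. The mutant libraries moved to a similar extent: the median of the 45 genes, relative to the control mean, was 0.84, 0.75, 0.78 and 0.83 on the log2 scale in mice M136, M167, M168 and M177, and the 4 control libraries lay between -0.04 and 0.04. Summed over the 45 genes, the level was 929.7 ± 16.4 CPM (SD, n = 4) in control ileum and 1624 ± 68.3 CPM (SD, n = 4) in mutant ileum. Here and below, rose and fell are used where the p-value from edgeR's quasi-likelihood test, adjusted over all genes tested, is under 0.05. In whole tissue RNA, more or fewer cells of a type and more or less RNA per cell cannot be told apart.

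**Figure D1:**
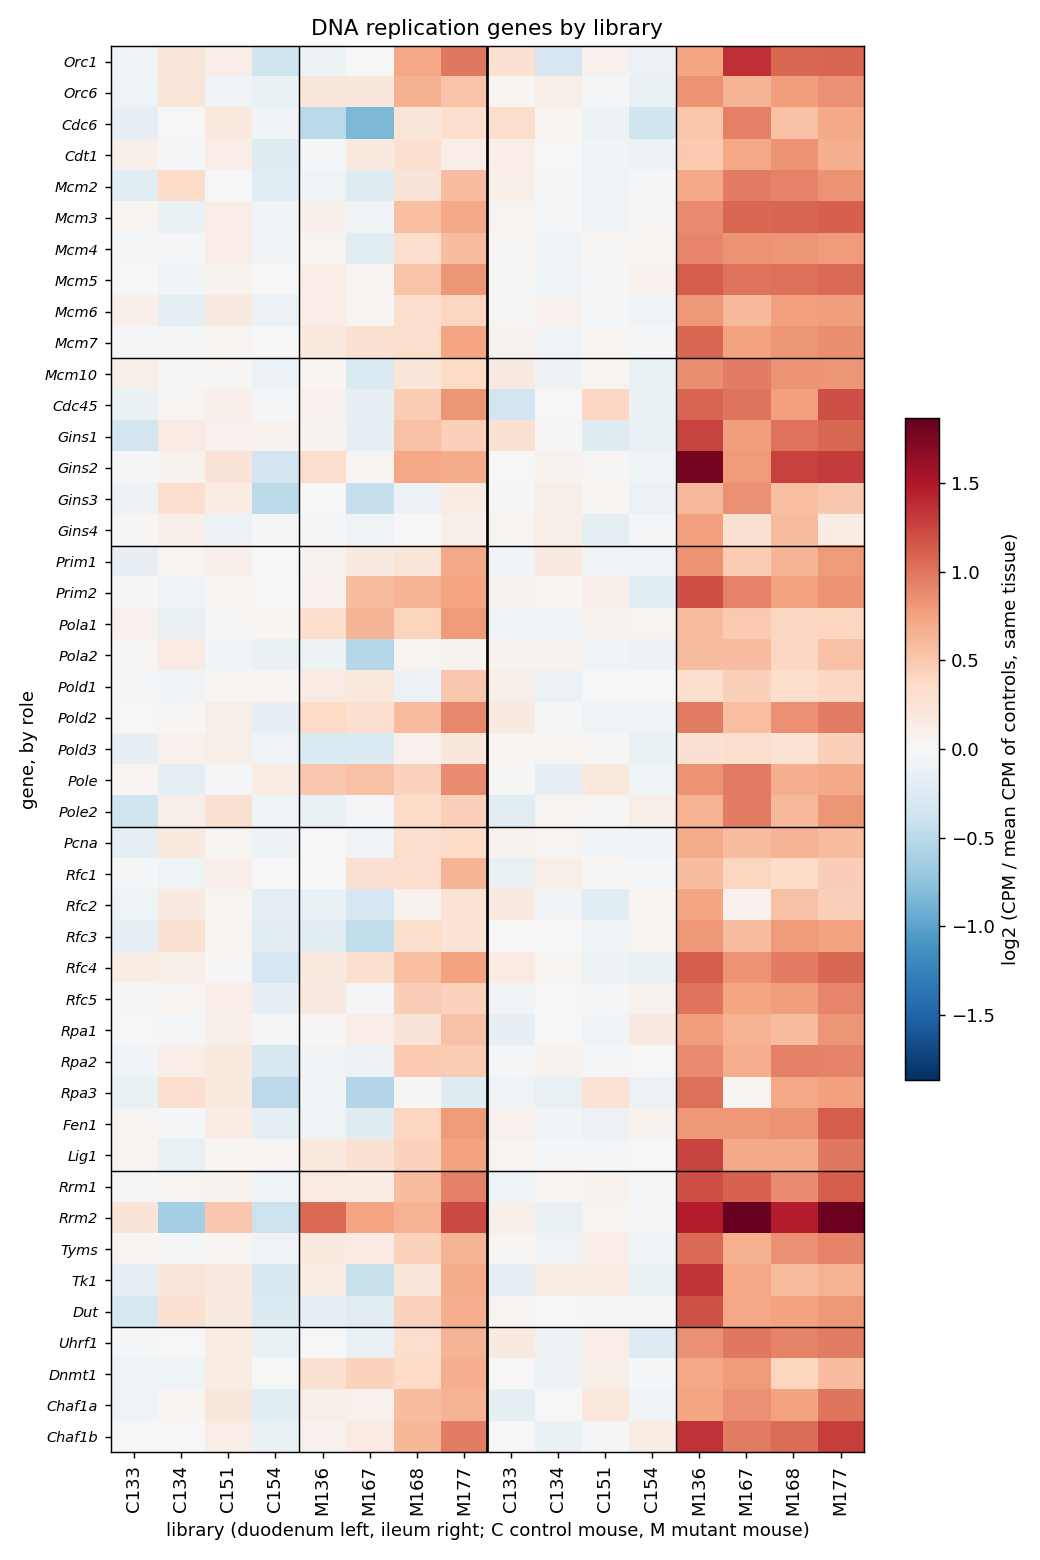
Level of each of the 45 DNA replication genes in each of the 16 libraries, as the log2 ratio of its CPM to the mean CPM of the 4 control libraries of the same tissue (colour scale), with genes in rows by role and libraries in columns. The 4 columns of mutant ileum are above the control mean for all 45 genes, and in mutant duodenum the libraries of mice M168 and M177 are above it for 43 and 44 genes.

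In the duodenum, 5 of the 45 genes rose and none fell, against 3.44% of the 17611 genes tested that rose and 5.11% that fell. The 5 were Prim2, Pola1, Pold2 and Pole, all subunits of primase or of replicative polymerases, and Dnmt1, the maintenance DNA methyltransferase. The estimate was positive for 39 of the 45 genes, with a median log2 fold change of 0.28 (from -0.17 to 0.95) against 0.02 for all genes tested, and 21 had an unadjusted p under 0.05. The 6 genes with a negative estimate had an unadjusted p of 0.416 (Rpa3) or more. The mutant groups lay wholly above the controls for 11 genes (Mcm7, Prim2, Pola1, Pold2, Pole, Rfc4, Lig1, Rrm1, Rrm2, Tyms and Dnmt1), against 7.81% of all genes tested. The mutant mice differed among themselves: the median of the 45 genes over the control mean was 0.07 in mouse M136 and 0.01 in mouse M167, but 0.38 in mouse M168 and 0.63 in mouse M177, with controls between -0.10 and 0.10. Summed levels were 1039.9 ± 63.2 CPM (SD, n = 4) in control and 1324 ± 226 CPM (SD, n = 4) in mutant duodenum. The count of 5 rested on single mice. It was 2, 0, 1 and 2 when C133, C134, C151 or C154 was left out, and 12, 3, 4 and 3 without mutant mouse M136, M167, M168 or M177. It was 0 both without control mice C134 and C154 and without mutant mice M167 and M177, and DESeq2's Wald test called 12. For these counts the share of all genes called is not given here. Exocrine pancreas genes were high in the duodenum of mutant mice M167 and M177, which stood at the bottom and the top of the replication genes' medians, and with those 12 genes left out of the table the count was 4.

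**Figure D2:**
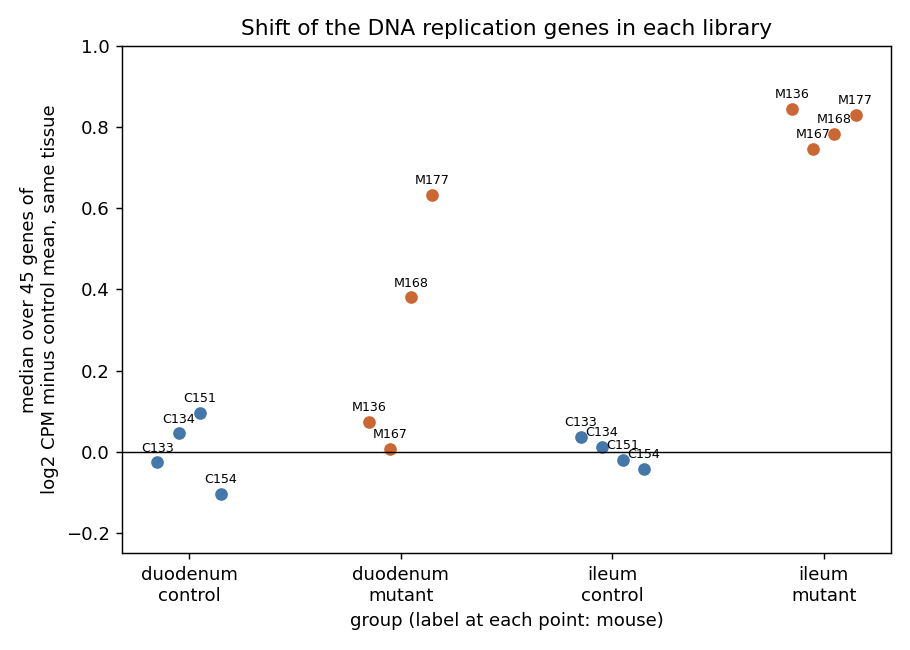
Median over the 45 DNA replication genes of the log2 CPM minus the mean log2 CPM of the same tissue's 4 control libraries (vertical axis). Values are shown by tissue and genotype, with 1 point per library labelled by mouse. The 4 mutant ileum libraries lie between 0.75 and 0.84, and the 4 mutant duodenum libraries spread from 0.01 to 0.63.

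Promoter sequences of the RefSeq table (GRCm38.p6, from 250 bases before to 50 after each start site) were on hand for 38 of the 45 genes. They are shown because many of the genes are textbook E2F targets. The E2F letters searched were TTTCCCGC, TTTGGCGC, TTTCGCGC and TTTGCCGC, on both strands, and matches of different letters can overlap each other, as in Mcm5 and Mcm6. Genes were counted, and a gene with more than 1 window counted once if any window had a match. At least 1 match was found for 16 of the 38 genes (42.1%), against 2.60% of 27025 genes with a window. CCAAT, the letters of the NF-Y site, on both strands, was found for 24 of 38 (63.2%), against 41.1% of all genes with a window. The E2F letters were also found for 7 of 14 G1/S control genes with a window, 10 of 36 other replication genes and 1 of 16 mitosis genes. CCAAT was found for 8 of 14, 18 of 36 and 14 of 16 of these genes. The 5 windows below each show the 170 bases that end just before the start site, 5′ to 3′ along the gene, with E2F letters and CCAAT (or its reverse complement ATTGG) in capitals. Mcm5 and Mcm6 are helicase subunits with several matches, Orc1 and Pola1 have 1 E2F match each, and Pola1 but not Orc1 was called in the duodenum, and Rrm2, the gene with the largest change in the ileum, has none.
Mcm5, chr8:75109339-75109508, forward strand: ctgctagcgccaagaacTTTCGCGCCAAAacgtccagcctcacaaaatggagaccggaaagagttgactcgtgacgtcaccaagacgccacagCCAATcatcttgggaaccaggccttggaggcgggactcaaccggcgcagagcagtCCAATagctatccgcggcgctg
Mcm6, chr1:128359706-128359875, reverse strand: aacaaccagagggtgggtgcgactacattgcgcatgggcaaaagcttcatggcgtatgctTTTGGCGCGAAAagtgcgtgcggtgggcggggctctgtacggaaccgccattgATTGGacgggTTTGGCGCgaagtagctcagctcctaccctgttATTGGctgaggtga
Orc1, chr4:108579284-108579453, forward strand: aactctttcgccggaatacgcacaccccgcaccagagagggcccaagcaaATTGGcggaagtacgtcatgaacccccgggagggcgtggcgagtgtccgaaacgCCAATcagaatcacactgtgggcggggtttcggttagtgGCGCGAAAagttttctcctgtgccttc
Pola1, chrX:93632156-93632325, reverse strand: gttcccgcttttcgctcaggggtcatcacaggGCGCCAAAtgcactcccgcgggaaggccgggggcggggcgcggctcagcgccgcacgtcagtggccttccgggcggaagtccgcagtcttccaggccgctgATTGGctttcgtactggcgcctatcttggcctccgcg
Rrm2, chr12:24708084-24708253, forward strand: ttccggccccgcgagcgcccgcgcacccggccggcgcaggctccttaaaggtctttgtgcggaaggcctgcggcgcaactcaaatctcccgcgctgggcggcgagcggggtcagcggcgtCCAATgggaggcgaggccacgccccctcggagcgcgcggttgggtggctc
A match is a description of letters only. The genes were chosen by function and many are textbook E2F targets, so a share above that of all genes was likely whatever their levels here. In the ileum the median log2 fold change was 0.77 for the 16 genes with E2F letters in the window and 0.89 for the 22 without, and in the duodenum 0.24 and 0.31.

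The origin licensing genes rose in the ileum in 10 of 10 cases, with a median log2 fold change of 0.88, and in the duodenum in 0 of 10 by edgeR (4 with an unadjusted p under 0.05; median 0.31). Mcm5, a subunit of the helicase ring, stood at 35.6, 32.9, 34.4 and 36.7 CPM in control ileum and at 76.7, 70.7, 71.2 and 72.3 CPM in mutant ileum. The groups were far apart, with a log2 fold change of 1.09 ± 0.08 (adjusted p = 2.17e-05). Here and below ± after a log2 fold change is an SE, computed as its absolute value divided by the square root of edgeR's F statistic. Control duodenum had 36.4, 35.3, 38.5 and 36.3 CPM of Mcm5 and mutant duodenum 40.0, 38.0, 53.2 and 64.9 CPM, where mouse M177 was highest and mice M136 and M167 were close to the controls, and the change was 0.43 ± 0.15 (adjusted p = 0.0963). Mcm6, another ring subunit, had the highest mean CPM of the licensing genes. Its level was 74.1, 76.6, 70.9 and 69.5 CPM in control ileum and 127, 110.5, 124 and 125 CPM in mutant ileum, a change of 0.77 ± 0.08 (adjusted p = 9.24e-05). Control duodenum gave 92.5, 77.1, 97.8 and 80.6 CPM and mutant duodenum 94.7, 89.5, 108 and 115 CPM for Mcm6, with overlapping groups and a change of 0.24 ± 0.11 (adjusted p = 0.189). Mcm4, also of the ring, went in the ileum from 41.2, 38.7, 41.2 and 41.6 CPM to 76.2, 72.8, 71.8 and 70.6 CPM, 0.87 ± 0.07 (adjusted p = 3.92e-05). The duodenal values of Mcm4 were 37.6, 37.9, 42.0 and 37.2 CPM in controls and 40.1, 33.5, 48.4 and 57.8 CPM in mutants, of which mouse M167 was below every control.

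Mcm7 was the licensing gene with the smallest duodenal p and one of the 11 genes without overlap there. It stood at 28.9, 28.7, 30.2 and 28.9 CPM in control duodenum and 33.0, 35.4, 36.7 and 48.4 CPM in mutant duodenum, 0.41 ± 0.12 (adjusted p = 0.0577), which misses the threshold. In the ileum it went from 28.2, 25.8, 27.7 and 26.5 CPM to 56.9, 45.3, 47.9 and 49.6 CPM, 0.92 ± 0.09 (adjusted p = 6.74e-05). Cdt1, which brings the helicase to origins and is destroyed once S phase starts, was at 16.4, 15.2, 14.5 and 14.1 CPM in control ileum and 21.1, 24.8, 26.9 and 24.1 CPM in mutant ileum, 0.72 ± 0.10 (adjusted p = 0.000445). Its duodenal values were 19.6, 18.1, 19.9 and 15.6 CPM and 17.8, 20.7, 22.5 and 19.9 CPM, 0.16 ± 0.11 (adjusted p = 0.375), with mouse M136 inside the control range and the other mutant mice above it, M177 by a small margin. The other licensing genes were Orc1 and Orc6 of the origin recognition complex, the loader Cdc6, and Mcm2 and Mcm3. Their ileal folds were 2.17, 1.76, 1.65, 1.86 and 2.11. Cdc6 alone among the licensing genes had a negative estimate in the duodenum, -0.11 ± 0.23 (adjusted p = 0.785), where mutant mice M136 and M167 had 5.03 and 3.99 CPM and mice M168 and M177 had 8.35 and 8.86 CPM.

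All 6 genes of helicase activation rose in the ileum, with a median log2 fold change of 0.98, and 0 of 6 rose in the duodenum by edgeR (1 with an unadjusted p under 0.05; median 0.19). Gins2, a subunit of the GINS complex, changed most after Rrm2. It stood at 2.97, 3.13, 3.04 and 2.84 CPM in control ileum and 10.3, 5.18, 7.27 and 7.41 CPM in mutant ileum, 1.36 ± 0.19 (adjusted p = 0.000455), with the mutant mice spread over a wide range above all controls. In the duodenum the values were 4.21, 4.45, 5.06 and 3.34 CPM and 5.35, 4.44, 7.01 and 6.92 CPM, 0.49 ± 0.19 (adjusted p = 0.120). Of the exon length of Gins2, 67.3% is shared with the gene Gse1 on the opposite strand, and the strand setting of the counting is not given in the sources used here, so this level may include or lack reads of the shared part. Mcm10, which helps to start the helicase, went from 23.9, 19.9, 21.9 and 19.3 CPM to 38.9, 41.1, 38.0 and 37.5 CPM in the ileum, 0.91 ± 0.09 (adjusted p = 7.66e-05). Duodenal Mcm10 was at 29.4, 26.7, 27.8 and 25.3 CPM in controls and 28.1, 22.6, 31.8 and 35.1 CPM in mutants, with mouse M167 below and mice M168 and M177 above the controls, 0.12 ± 0.13 (adjusted p = 0.560). Cdc45, Gins1, Gins3 and Gins4 had ileal folds of 2.08, 2.10, 1.59 and 1.41. Gins4 was the weakest of them in the test, at 0.50 ± 0.14 (adjusted p = 0.0212), and lost its call without control mouse C151, without mutant mouse M136 and without mutant mouse M168.

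Primase and the polymerases held 4 of the 5 duodenal calls: 9 of 9 rose in the ileum (median log2 fold change 0.72) and 4 of 9 in the duodenum (median 0.32). Pole, the catalytic subunit of polymerase epsilon, which extends the leading strand, stood at 28.0, 24.4, 26.6 and 30.1 CPM in control duodenum and 38.8, 40.1, 36.7 and 50.4 CPM in mutant duodenum. No mutant library overlapped the controls, and the change was 0.62 ± 0.12 (adjusted p = 0.0144). In the ileum Pole went from 31.8, 28.3, 35.9 and 29.6 CPM to 55.9, 61.2, 50.4 and 51.0 CPM, 0.83 ± 0.10 (adjusted p = 0.000197). Pola1, the catalytic subunit of polymerase alpha, was at 32.1, 27.6, 30.7 and 31.1 CPM in control and 38.2, 47.0, 40.4 and 52.9 CPM in mutant duodenum, 0.57 ± 0.12 (adjusted p = 0.0185). Its ileal values were 32.9, 33.1, 36.1 and 35.7 CPM and 52.0, 48.4, 44.9 and 45.3 CPM, 0.50 ± 0.08 (adjusted p = 0.00129), so that Pola1 was the 1 gene of 45 whose estimate was larger in the duodenum. The difference between the tissues was -0.09 ± 0.14 and did not pass the test (adjusted p = 0.702). Pold2, the second subunit of polymerase delta, stood at 28.6, 28.8, 30.4 and 25.5 CPM and 36.7, 35.3, 42.5 and 52.5 CPM in control and mutant duodenum, 0.57 ± 0.13 (adjusted p = 0.0252). Ileal Pold2 was at 28.6, 24.7, 24.0 and 24.3 CPM and 49.9, 37.5, 45.8 and 49.8 CPM, 0.88 ± 0.11 (adjusted p = 0.000181).

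Prim2, the large subunit of primase, was called in the duodenum by a narrow margin. Mouse M136 had 7.44 CPM, just above the highest control, in values of 7.21, 6.70, 7.28 and 7.09 CPM for controls and 7.44, 10.6, 10.9 and 11.8 CPM for mutants, 0.54 ± 0.15 (adjusted p = 0.0490). In the ileum Prim2 stood at 7.63, 7.43, 7.74 and 6.26 CPM and 16.8, 13.9, 12.3 and 13.0 CPM, 0.98 ± 0.13 (adjusted p = 0.000287). Its partner in the polymerase alpha complex, the accessory subunit Pola2, was not called in the duodenum, with 25.8, 28.2, 24.7 and 23.3 CPM in controls and 23.9, 17.7, 26.4 and 26.6 CPM in mutants, -0.10 ± 0.13 (adjusted p = 0.657). Ileal Pola2 was at 22.1, 22.0, 20.2 and 19.7 CPM in controls and 31.2, 31.2, 27.4 and 30.6 CPM in mutants, 0.55 ± 0.09 (adjusted p = 0.000974). Pold3 and Pold1, the accessory and the catalytic subunit of polymerase delta, had the 2 smallest ileal folds of all 45 genes, 1.29 and 1.32, while Prim1 and Pole2 had 1.65 and 1.74. Of the 4 duodenal calls, Pole, Pola1 and Pold2 were lost without control mouse C134 or C151, Pold2 also without control mouse C133 or C154, and Prim2 was lost on leaving out any mouse other than mutant mouse M136.

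**Figure D3:**
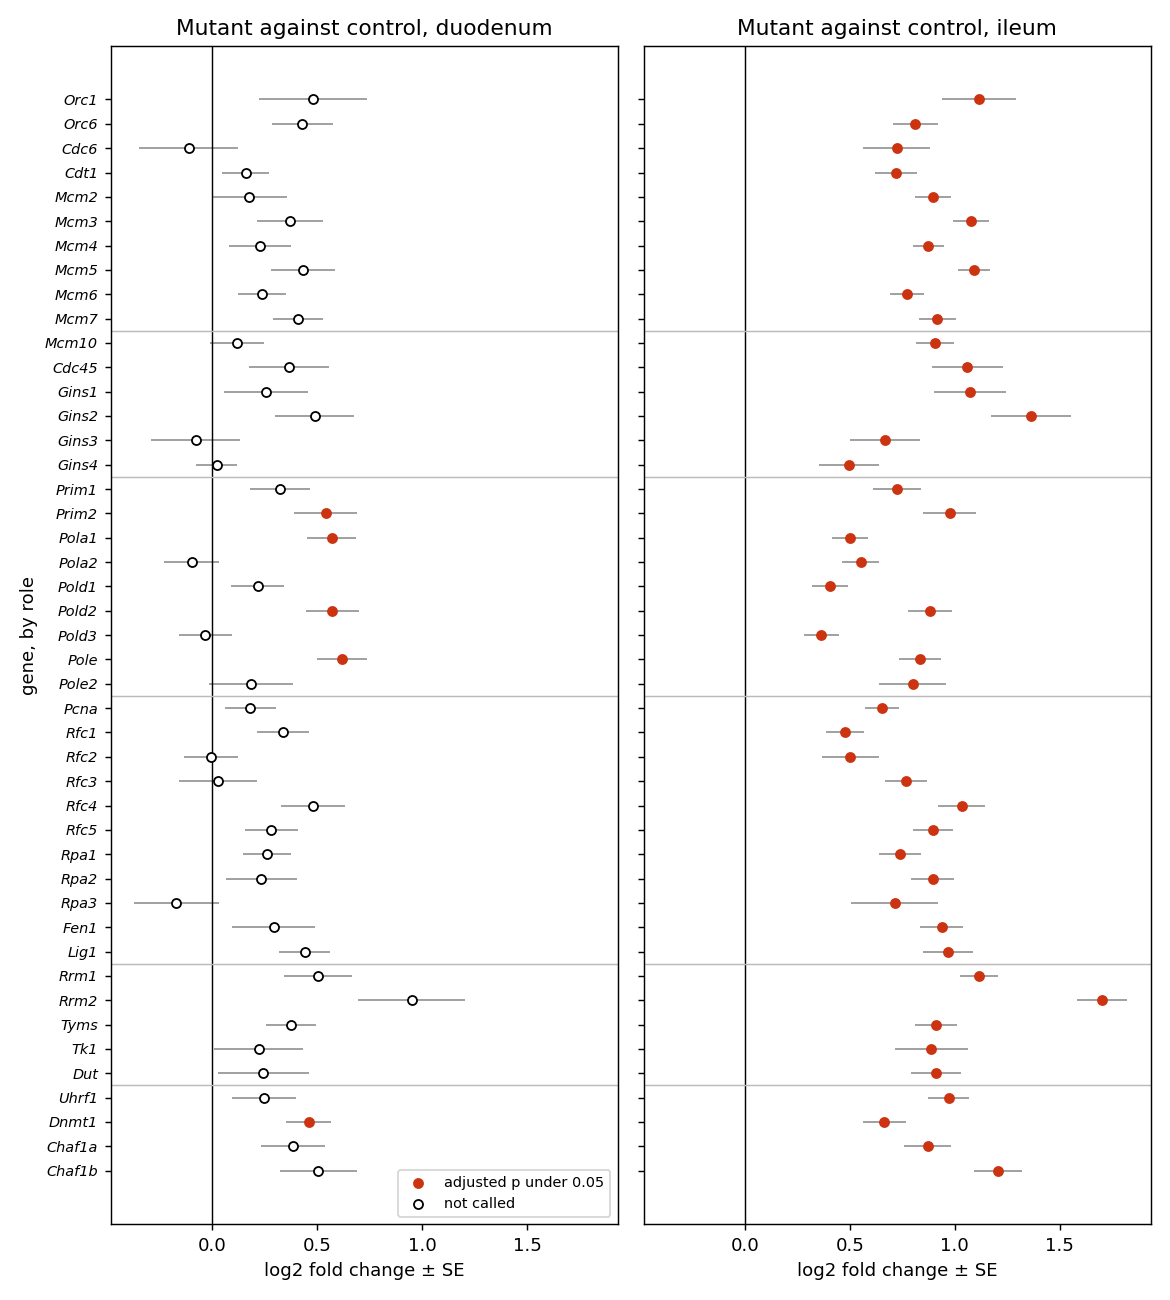
Log2 fold change of mutant over control (horizontal axis, with bars for the SE computed from edgeR's F statistic) for each of the 45 DNA replication genes, by role, in the duodenum (left) and the ileum (right), with filled points for an adjusted p under 0.05. All 45 points are filled in the ileum, from 0.36 to 1.70, and 5 are filled in the duodenum.

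The clamp, its loader and the strand processing genes rose in 11 of 11 cases in the ileum (median log2 fold change 0.77) and in 0 of 11 in the duodenum by edgeR (5 with an unadjusted p under 0.05; median 0.26). Lig1, the ligase that seals Okazaki fragments, stood at 31.3, 29.4, 29.6 and 30.2 CPM in control ileum and 72.3, 49.4, 49.4 and 59.4 CPM in mutant ileum, with the mutant mice well clear of the narrow control range, 0.97 ± 0.12 (adjusted p = 0.000231). In the duodenum the groups did not overlap either, at 31.1, 27.4, 30.8 and 30.6 CPM and 34.0, 36.5, 40.5 and 50.5 CPM, but the change missed the threshold at 0.44 ± 0.12 (adjusted p = 0.0510). Rfc5, a subunit of the clamp loader, went from 15.5, 16.2, 15.7 and 16.8 CPM to 32.4, 26.7, 27.7 and 30.3 CPM in the ileum, 0.90 ± 0.09 (adjusted p = 9.61e-05). Duodenal Rfc5 was at 19.1, 20.2, 21.2 and 17.5 CPM and 22.0, 18.9, 26.7 and 26.4 CPM, with mouse M167 inside the control range, 0.28 ± 0.12 (adjusted p = 0.161). Rfc1, the large loader subunit, was at 53.2, 63.4, 59.5 and 57.9 CPM in control ileum and 87.4, 76.9, 74.0 and 80.3 CPM in mutant ileum, one of the smaller changes at 0.48 ± 0.09 (adjusted p = 0.00253). In the duodenum Rfc1 was at 37.0, 35.9, 40.4 and 37.9 CPM and 37.8, 46.1, 46.8 and 58.5 CPM, 0.34 ± 0.12 (adjusted p = 0.106). Pcna, the clamp itself, had 19.4 ± 0.949 CPM in control and 29.9 ± 1.05 CPM in mutant ileum (SD, n = 4), 0.65 ± 0.08 (adjusted p = 0.000234). It has 2 named pseudogenes, so some of its reads may have been discarded or split.

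Of the remaining genes of that group, the nuclease Fen1 had an ileal fold of 1.92. Of its exon length, 84.2% is shared with the genes Gm10143 and Tmem258, not both on its own strand, which limits its level as for Gins2. Rfc4, Rfc3 and Rfc2 had ileal folds of 2.05, 1.70 and 1.42, and Rpa1, Rpa2 and Rpa3 had 1.67, 1.86 and 1.64. Mouse M167 set the overlap of Rfc2 and Rpa3: it had 21.0 CPM of Rfc2 and 3.04 CPM of Rpa3, within control ranges of 17.4 to 22.5 CPM and 2.67 to 3.55 CPM. Rpa3 also had the largest adjusted p of the ileal calls, 0.71 ± 0.21 (adjusted p = 0.0219), lost without control mouse C133, C134 or C154 and without mutant mouse M136 or M177.

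The deoxynucleotide supply genes rose in 5 of 5 cases in the ileum (median log2 fold change 0.91) and in 0 of 5 in the duodenum by edgeR (3 with an unadjusted p under 0.05; median 0.38). Rrm2, the S phase subunit of ribonucleotide reductase, had the largest estimate in both tissues. It stood at 18.5, 15.6, 17.7 and 16.9 CPM in control ileum and 47.3, 62.6, 47.2 and 61.1 CPM in mutant ileum, a fold of 3.25 and a log2 fold change of 1.70 ± 0.12 (adjusted p = 2.17e-05). Duodenal Rrm2 was at 70.1, 38.1, 84.3 and 45.2 CPM in control mice against 124, 98.8, 93.0 and 139 CPM in mutant mice. The lower control values were those of C134 and C154, the libraries with more follicle and less pancreas signal, and the part of that signal was not tested. Those groups did not overlap, but the change of 0.95 ± 0.25 just missed the threshold (adjusted p = 0.0522). Rrm1, the large subunit of the same enzyme, went from 57.3, 61.8, 63.2 and 59.6 CPM to 139, 129, 112 and 133.01 CPM in the ileum, 1.12 ± 0.09 (adjusted p = 3.61e-05). In the duodenum Rrm1 stood at 66.0, 70.4, 71.4 and 64.0 CPM and 75.7, 74.9, 102 and 129.9 CPM, with mice M168 and M177 highest, 0.50 ± 0.16 (adjusted p = 0.0749). Tyms, which makes thymidylate and has 1 named pseudogene, Tk1, which salvages thymidine, and Dut, which removes dUTP, had ileal folds of 1.88, 1.85 and 1.88.

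Among the chromatin copying genes 4 of 4 rose in the ileum (median log2 fold change 0.92) and 1 of 4, Dnmt1, in the duodenum (median 0.42). Dnmt1 stood at 62.4, 61.9, 72.0 and 66.2 CPM in control duodenum and 79.6, 88.2, 85.3 and 105 CPM in mutant duodenum, 0.46 ± 0.11 (adjusted p = 0.0281), without overlap. In the ileum it went from 73.1, 67.9, 78.6 and 70.7 CPM to 119, 126, 96.0 and 108 CPM, 0.66 ± 0.10 (adjusted p = 0.000733). Its duodenal call was lost on leaving out any 1 of the control mice or mutant mouse M167 or M177. Chaf1b, a subunit of the histone chaperone CAF-1 that loads histones behind the fork, was at 9.20, 8.42, 8.96 and 10.0 CPM in control ileum and 23.3, 18.0, 19.0 and 22.3 CPM in mutant ileum, 1.20 ± 0.11 (adjusted p = 6.43e-05). Duodenal Chaf1b was at 9.35, 9.48, 10.3 and 8.63 CPM and 9.99, 10.5, 14.4 and 18.3 CPM, 0.51 ± 0.18 (adjusted p = 0.101). Uhrf1, which recruits Dnmt1 to newly copied DNA, went from 32.7, 27.5, 31.9 and 24.9 CPM to 52.8, 58.1, 55.6 and 57.3 CPM in the ileum, 0.97 ± 0.10 (adjusted p = 7.46e-05). In the duodenum Uhrf1 was at 24.6, 24.8, 27.7 and 23.0 CPM and 25.2, 22.7, 31.3 and 38.7 CPM, 0.25 ± 0.15 (adjusted p = 0.300). Chaf1a, the large CAF-1 subunit, had an ileal fold of 1.83, and 52.5% of its exon length is shared with Ubxn6 on the opposite strand.

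**Figure D4:**
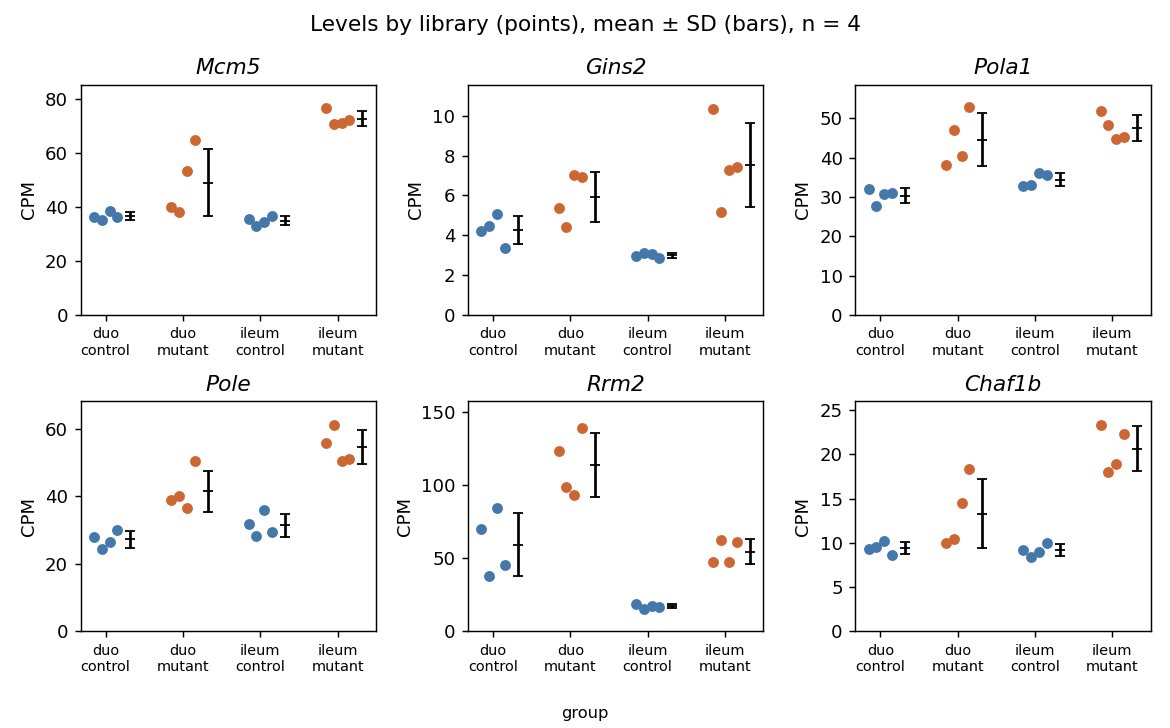
CPM of Mcm5, Gins2, Pola1, Pole, Rrm2 and Chaf1b in each library (points) with the mean and SD of the 4 libraries (bars), by tissue and genotype. Each of these genes separates fully in the ileum, and Pola1, Pole and Rrm2 also separate in the duodenum.

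Levels can be compared between genes only per length, and all 45 have an exon length, here the joined length of all annotated exons of the gene. In control ileum the highest level per kb of exon was that of Mcm6, 15.6 CPM per kb, followed by Pold2 at 13.4, Mcm4 at 11.3 and Dnmt1 at 9.84 CPM per kb. The lowest were Gins3 at 0.704, Gins2 at 0.730 and Pole2 at 0.892 CPM per kb. The place of Gins2 is limited by the 67.3% of its exon length that it shares with Gse1. In mutant ileum Mcm6 was at 26.1, Pold2 at 24.1 and Gins3 at 1.09 CPM per kb. Within the helicase ring, Mcm6, Mcm4 and Mcm5 stood at 15.6, 11.3 and 8.74 CPM per kb in control ileum.

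A test of the genotype by tissue term asked whether the effect differed between the tissues. It was larger in the ileum for 12 of the 45 genes, against 4.86% of the 19289 genes tested, and smaller for none by edgeR, against 4.13%, with a median difference of 0.59 on the log2 scale (all genes, -0.06) and a positive estimate for 44. The 12 were 6 licensing genes (Cdt1, Mcm2, Mcm3, Mcm4, Mcm5 and Mcm6), Mcm10, Pola2, the loader subunits Rfc3 and Rfc5, Tyms and Uhrf1. Mcm10 had the smallest p, with a difference of 0.76 ± 0.16 (adjusted p = 0.0154), and Mcm5 had 0.64 ± 0.18 (adjusted p = 0.0386). Mcm2 went from 34.3 ± 2.01 to 62.4 ± 4.60 CPM in the ileum and from 39.0 ± 7.39 to 43.8 ± 11.0 CPM in the duodenum (SD, n = 4), a difference of 0.70 ± 0.21 (adjusted p = 0.0498). Pole, Pola1, Pold2, Prim2 and Dnmt1, called in the duodenum, gave differences of 0.20 ± 0.16, -0.09 ± 0.14, 0.29 ± 0.17, 0.42 ± 0.20 and 0.18 ± 0.15, none past the threshold (adjusted p from 0.162 to 0.702). With the mouse as a block, which uses that each mouse gave both tissues, the count was 26 in place of 12. The count depended on single mice: it was 1, 1, 0 and 1 when C133, C134, C151 or C154 was left out, 1, 8, 11 and 15 without mutant mouse M136, M167, M168 or M177, and 0 with C134 and C154 both left out. DESeq2's Wald test called 25. The share of all genes called under these alternatives is not given here, so the counts have no background beside them.

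The level of these genes in the 2 tissues was compared within each genotype, ileum over duodenum. In control mice 3 were higher in the ileum (Rfc1, Orc1 and Pola1) and 18 lower, against 28.0% and 30.3% of the 18217 genes tested, and the median log2 difference was -0.25. Rrm2 stood furthest apart at -1.78 ± 0.25 (adjusted p = 0.000473), and Pcna, Prim1 and Rpa3 were also lower in the ileum, at -0.52 ± 0.09, -0.49 ± 0.09 and -0.65 ± 0.19. Rfc1 was the clearest gene in the other direction at 0.64 ± 0.07 (adjusted p = 3.80e-05). In mutant mice 12 were higher in the ileum (Orc1, Cdc6, Mcm2, Mcm4, Mcm5, Mcm7, Mcm10, Pole, Rfc1, Lig1, Uhrf1 and Chaf1b), against 12.9% of the 17852 genes tested, with a median of 0.35, and 1 was lower, Rrm2 at -1.04 ± 0.16 (adjusted p = 0.000691), against 18.2%. With the mouse as a block 22 were higher in mutant mice, a count given without the share of all genes called in that fit. Leaving out 1 control mouse gave 1 or 2 higher and 7 to 19 lower in control mice, and leaving out 1 mutant mouse gave 4 to 14 higher in mutant mice. Each tissue comparison shares its libraries with the genotype comparisons above. Scaling to the 7 epithelium genes reversed the balance in mutant mice, where none were higher and 23 lower (median -0.40). In control mice, where most calls were already lower, it gave none higher and 41 lower (median -0.72). On that scale the median over all genes was -0.47 in control mice and -0.79 in mutant mice, against -0.0050 and -0.012 on the main scale. On both scales the median of the 45 genes was below that of all genes in control mice and above it in mutant mice. The share of all genes called on the epithelium scale is not given here for the tissue comparisons. Rfc1 had a difference of -0.0043 in mutant mice on that scale.

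Other genes of the pathway moved with them. Of 45 further replication genes, 34 rose and 2 fell in the ileum (median log2 fold change 0.79), and 7 rose and 2 fell in the duodenum (median 0.26). Over all genes tested, 19.0% rose and 14.6% fell in the ileum and 3.44% rose and 5.11% fell in the duodenum, so genes that fell were no more frequent here than among all genes. Dbf4, the activator of the kinase that fires origins, had 1.14 ± 0.11 (adjusted p = 6.74e-05) in the ileum and 0.39 ± 0.18 (adjusted p = 0.176) in the duodenum. Mms22l, a fork protection factor, had 0.97 ± 0.10 (adjusted p = 8.53e-05) and 0.52 ± 0.14 (adjusted p = 0.0416), and Dtl, which helps destroy Cdt1 in S phase, had 1.001 ± 0.105 (adjusted p = 0.000100) and 0.61 ± 0.12 (adjusted p = 0.0158). The genes that fell, named after their values were seen, were Samhd1 and Rrm2b in the ileum and Samhd1 and Pold4 in the duodenum. Samhd1 breaks down deoxynucleotides, and was at 73.8 ± 9.87 CPM in control and 46.3 ± 2.498 CPM in mutant ileum (SD, n = 4), -0.64 ± 0.11 (adjusted p = 0.00131), with -0.73 ± 0.16 (adjusted p = 0.0230) in the duodenum. Rrm2b, the ribonucleotide reductase subunit used outside S phase, had -0.44 ± 0.15 (adjusted p = 0.0369) in the ileum, opposite in sign to Rrm2. Pold4, the smallest polymerase delta subunit, had -0.73 ± 0.20 (adjusted p = 0.0454) in the duodenum and 0.55 ± 0.29 (adjusted p = 0.165) in the ileum.

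Of 20 G1/S control genes 14 rose and 1 fell in the ileum (median log2 fold change 0.52), and 2 rose and 1 fell in the duodenum. Ccna2, the S phase cyclin, had 1.32 ± 0.12 (adjusted p = 6.02e-05) in the ileum and 0.54 ± 0.14 (adjusted p = 0.0383) in the duodenum. E2f1, an activator of replication genes, had 0.87 ± 0.16 (adjusted p = 0.00171) and 0.42 ± 0.18 (adjusted p = 0.154), and E2f8, an E2F repressor that is itself made in S phase, had 1.19 ± 0.11 (adjusted p = 6.62e-05) and 0.33 ± 0.15 (adjusted p = 0.165). The E cyclins parted: Ccne1 had 1.23 ± 0.14 (adjusted p = 0.000157) in the ileum, while Ccne2, named after its value was seen, was the gene that fell in both tissues, with -0.60 ± 0.12 (adjusted p = 0.00349) in the ileum and -0.50 ± 0.14 (adjusted p = 0.04999) in the duodenum. Of 16 replication fork repair genes 13 rose in the ileum and 3 in the duodenum, among them Brca1, a DNA repair factor, at 1.05 ± 0.11 (adjusted p = 0.000113) in the ileum and the helicase Blm at 1.13 ± 0.13 (adjusted p = 0.000151). Brca1 was at 0.51 ± 0.13 (adjusted p = 0.0361) in the duodenum. All 18 mitosis genes rose in the ileum (median 0.9997) and 3 rose in the duodenum (median 0.26), and 10 of the 18 had a larger effect in the ileum. Ccnb2, a mitotic cyclin, had 1.41 ± 0.11 (adjusted p = 3.61e-05) in the ileum against 0.22 ± 0.14 (adjusted p = 0.312) in the duodenum, a difference of 1.17 ± 0.18 (adjusted p = 0.00364). Plk1 and Birc5 had 1.18 ± 0.11 and 1.40 ± 0.15 in the ileum. Mki67, the marker of cycling cells, stood at 212, 215, 296 and 217 CPM in control ileum and 385, 471, 266 and 401 CPM in mutant ileum, 0.73 ± 0.17 (adjusted p = 0.00896), with mouse M168 inside the control range.

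**Figure D5:**
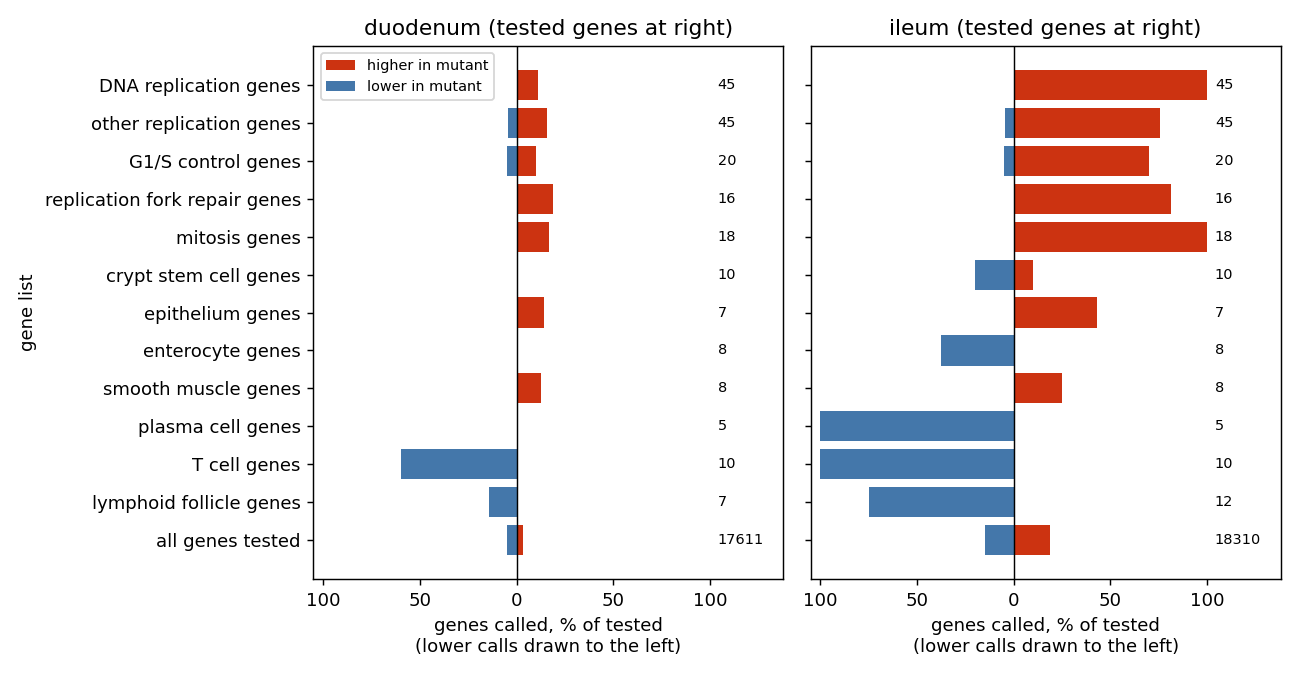
Share of the tested genes of each list that was called higher (right) or lower (left) in mutant mice, in percent, in the duodenum and the ileum, with the number tested at the right of each bar and all genes tested in the lowest bar. In the ileum all 45 DNA replication genes and all 18 mitosis genes were higher and all 10 T cell genes lower.

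Markers of other cell types were measured in the same libraries, and their counts stand beside 19.0% of all genes that rose and 14.6% that fell in the ileum. Of 10 crypt stem cell genes 1 rose (Msi1, 0.38 ± 0.12) and 2 fell, shares near those of all genes. The estimate was negative for 9 of the 10, against 9589 of 18310 genes tested, with a median log2 fold change of -0.29 (all genes, -0.03). Their summed level, of which Olfm4 was a large part, was 1167 to 1536 CPM in control and 811 to 939 CPM in mutant ileum. None of the 10 was without counts. Olfm4, an abundant stem cell gene, was at 657 ± 158 CPM in control and 266 ± 65.6 CPM in mutant ileum (SD, n = 4), -1.28 ± 0.21 (adjusted p = 0.00133), Rnf43 had -0.35 ± 0.11 (adjusted p = 0.0271), and Lgr5 had -0.31 ± 0.13 (adjusted p = 0.0994). Lymphocyte genes were lower. All 10 T cell genes fell in the ileum (summed level 44.1 to 83.2 CPM in controls and 11.7 to 20.8 CPM in mutants; Cd3e, -2.37 ± 0.26), as did 5 of 5 plasma cell genes (3163 to 4801 and 920.0 to 2279 CPM; Jchain, -1.69 ± 0.34) and 9 of 12 lymphoid follicle genes (18.8 to 231 and 10.7 to 14.5 CPM; Cd22, -2.64 ± 0.77). In the duodenum, where 5.11% of all genes fell, 6 of 10 T cell genes did (88.2 to 120 CPM in controls and 41.5 to 72.7 CPM in mutants). Control mice C134 and C154 held most of the follicle signal in control ileum. Without them, 39 of the 45 replication genes rose in the ileum, with a median of 0.86. Rpa3, Rfc2, Pold3, Gins4, Gins3 and Pold1 lost their call. That fit had fewer control libraries, and the share of all genes called in it is not given here. Rpa3 and Gins4 also lost their call on leaving out single mice. Smooth muscle genes rose in 2 of 8 cases in the ileum, also near the share of all genes (2235 to 3259 CPM in controls and 2428 to 4092 CPM in mutants) and exocrine pancreas genes in 0 of 12 by edgeR. Enterocyte genes fell in 3 of 8 cases, Mep1a, Anpep and Treh, with -1.79 ± 0.17, -1.31 ± 0.16 and -1.46 ± 0.34. The part of these levels in the result for the replication genes was not tested.

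Epithelium genes rose in 3 of 7 cases in the ileum, all keratins: Krt18 at 1.15 ± 0.11 (adjusted p = 5.95e-05), Krt19 at 0.78 ± 0.12 (adjusted p = 0.000936) and Krt8 at 0.69 ± 0.12 (adjusted p = 0.00164), with a summed level of 6141 to 7349 CPM in controls and 7814 to 9317 CPM in mutants. When libraries were scaled to the 7 epithelium genes in place of all genes, an alternative chosen after seeing the data, 33 of the 45 replication genes rose in the ileum, against 6.22% of all genes tested. Their median log2 fold change was then 0.53 (0.03 to 1.38), with all 45 estimates positive, while the median over all genes was -0.37. The 12 that lost their call were Dnmt1, Pola1, Rpa3, Cdc6, Pole2, Rfc2, Pola2, Rfc1, Pold3, Gins4, Gins3 and Pold1. On the same scale none of the 45 rose in the duodenum (background 0.670%; median 0.23) and none differed between tissues by edgeR (background 0.643%; median 0.32, all genes -0.35).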

How the data were processed

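The authors deposited a table of whole number read counts, with 55359 Ensembl genes and 16 libraries of stranded, ribosomal RNA depleted total RNA. Per the submitters' processing notes the build was mm39 and the tools were HTSeq 0.6.1p1, STAR 2.5.3a, Bowtie2 2.2.8 and cutadapt 1.10. For the counting, neither strand setting nor annotation release is given in the sources used here. Names, exon lengths and exon overlaps came from GENCODE M21, on an earlier assembly, which named 52083 of the genes. The other 3276 rows stayed in the tests without a name. Totals were 40.9 to 67.2 M counts, no pair of libraries was identical, and genes with few counts have wider errors.

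Each tissue was fitted with edgeR 4.0.16 (R 4.3.3, limma 3.58.1): filterByExpr, scaling by the trimmed mean of M values, robust quasi-likelihood F test, Benjamini-Hochberg adjustment over all genes tested, threshold 0.05. The genotype by tissue term used all 16 libraries, and tissue contrasts the 8 of a genotype, in the main fits without a term for the mouse. The scripts were tested on simulated data. CPM used the same scaling over all libraries. The mouse numbers in the titles are the same in both tissues and pair the samples: residuals of a mouse's duodenum and ileum correlated in all 8 mice (r 0.22 to 0.48), best with the own number in 7.

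The replication genes and the other lists were chosen with earlier results of these data known. Values in every library are given, per role, for the genes with the smallest p in each tissue and the highest mean CPM, and for genes past a threshold, up to 20 genes. Outside them, Neurog3, Mki67, Lgr5, E2f1 and up to 3 genes with the smallest p per list are named. A gene named by this rule is left out of the text. The enteroendocrine list (6 of 6 lower in both tissues) was used as a check of the labels, with Neurog3. Promoter sequences are from RefSeq.

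Alternatives were limma-voom, DESeq2 1.42.0 (size factors in edgeR, and its Wald test), at least 1 CPM in 4 libraries, no low count filter, a table without exocrine pancreas genes, each mouse left out, control mice C134 and C154 or mutant mice M167 and M177 left out, all 16 libraries in 1 fit, and the mouse as a block. Scaling to the geometric mean of 7 epithelium genes was chosen after seeing the data.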

Additional observations from a re-analysis of the deposited data

Results flagged for a closer look

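In a check for a library far from the other 3 of its group, 11 of 180 groups (45 genes in 4 groups) had one, and chance gives about 1 in 20. In control duodenum these were Orc6 in mouse C134 at 7.99 CPM, Mcm4 and Mcm7 in mouse C151 at 42.0 and 30.2 CPM, and Lig1 in mouse C134 at 27.4 CPM. In control ileum they were Mcm4 and Prim1 in mouse C134 at 38.7 and 11.0 CPM, and Pold2 in mouse C133 at 28.6 CPM. In mutant ileum they were Tk1 and Dut in mouse M136 at 18.3 and 21.1 CPM, Pola2 in mouse M168 at 27.4 CPM and Fen1 in mouse M177 at 36.9 CPM.

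The effect of genotype differed between the tissues, by edgeR's test of the genotype by tissue term, for 12 genes. The difference, ileum minus duodenum on the log2 scale, was 0.54 for Cdt1, 0.70 for Mcm2, 0.68 for Mcm3, 0.62 for Mcm4, 0.64 for Mcm5, 0.52 for Mcm6, 0.76 for Mcm10, 0.63 for Pola2, 0.72 for Rfc3, 0.60 for Rfc5, 0.52 for Tyms and 0.70 for Uhrf1.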

How the results depend on the processing

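The count of 45 replication genes higher in the ileum was 39 without control mice C134 and C154 and 43 to 45 with 1 mouse left out. It was 33 with libraries scaled to epithelium genes, where their median log2 fold change was 0.53 in place of 0.88. On that scale the median over all genes was -0.37 in place of -0.03. With 1 mouse left out the median of the 45 genes was 0.84 to 0.89. In the duodenum the count of 5 became 12 with the DESeq2 Wald test, 8 with at least 1 CPM in 4 libraries, 14 with all 16 libraries in 1 fit, 0 with mice C134 and C154 left out, 0 with M167 and M177 left out, 0 with epithelium scaling and 0 to 12 with 1 mouse left out (median 0.17 to 0.37). The genotype by tissue count of 12 became 25 with the DESeq2 Wald test, 0 without control mice C134 and C154, 0 with epithelium scaling and 0 to 15 with 1 mouse left out (median 0.47 to 0.69). With the replicate block, which pairs the tissues of a mouse, it was 26. In mutant mice the replicate block gave 22 genes higher in the ileum in place of 12, and in control mice 4 higher and 19 lower. The filter of 1 CPM gave 6 higher and 10 lower in control mice, and leaving out 1 mouse gave 1 to 2 higher and 7 to 19 lower in control mice and 4 to 14 higher in mutant mice. Epithelium scaling gave 0 higher and 41 lower in control mice (median -0.72) and 0 higher and 23 lower in mutant mice (median -0.40, reversed). It reversed Pola1 in control mice (-0.28) and, in mutant mice, Mcm2 (-0.21), Mcm5 (-0.16), Pole (-0.36), Mcm4 (-0.0307), Chaf1b (-0.10), Mcm10 (-0.32), Rfc1 (-0.0043), Mcm7 (-0.38) and Lig1 (-0.24). This scaling lowered the median of all genes in these comparisons, to -0.47 in control mice and -0.79 in mutant mice. The median of the 45 genes stayed below that of all genes in control mice and above it in mutant mice. The cause of the other changes was not tested. No ileal genotype estimate of the 45 genes changed sign under any alternative run. Leaving out mice leaves fewer samples per group. Shares of all genes called were given above for epithelium scaling in the genotype and genotype by tissue comparisons. For the other alternatives they are not given, so those counts have no background beside them.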
